A study of Mus musculus with 6 samples.

Results

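The genes of vesicle fusion and synaptic release were compared between immortalized neural precursor-like cells that were wild type for Lgi1 and cells with a homozygous Lgi1 deletion. Members were the rows of the value table whose single gene symbol named a synaptotagmin, a syntaxin, a VAMP, SNAP-23, SNAP-25 or SNAP-29, a syntaxin-binding protein, a Rab3, Rim, complexin, synapsin or SV2 protein, or was Syp, Bsn, Pclo, Unc13a, Unc13b or Nsf. Where a gene had several rows, the row with the largest average value stood for it. This gave 69 genes of 19938 in all. The rule used names and not a difference between the genotypes. A row that names Vamp2 together with a second gene and one shared by Stxbp3 and a pseudogene were not analysed here.

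Both groups were C57BL/6J cells from the brains of embryos at day 13.5, first grown as neural precursors and then, once immortalized, in RPMI medium with 1% serum. One group was wild type and the other knock-out for Lgi1, which encodes a secreted neuronal protein, and no treatment was given to either. Total RNA of 3 samples of each genotype went onto separate Affymetrix Mouse Gene 1.0 ST arrays. The samples are labelled biological replicates. How many embryos or immortalized lines stand behind a genotype was not given in the sources used here, so p-values reflect only how far these samples varied, and that variation may be technical.

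Secretory and synaptic vesicles fuse when a SNARE protein on the vesicle, a VAMP, zips together with a syntaxin and a SNAP protein of the target membrane. Proteins of the Munc18 family (of the syntaxin-binding proteins here, only Stxbp2 and Stxbp3) and of the Munc13 family (Unc13) prepare this complex. Rab3 and Rim proteins bring the vesicle to the release site, complexins and synaptotagmins hold and trigger fusion in response to calcium, and the ATPase Nsf takes the used complex apart. Neurons rely on a specialised set of these proteins, whereas other SNAREs carry the traffic between Golgi, endosomes and surface in every cell.

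The arrays were alike within a genotype (Pearson correlations over all probe sets of 0.993 to 0.995, against 0.968 to 0.971 between genotypes), and their medians lay between 6.36 and 6.41 on the log2 scale. Because the deposited values come with no detection calls, the 95th percentile of 1194 olfactory and vomeronasal receptor genes, 5.68, was taken as the background level. Lgi1 itself lay under that level on every array (4.61, 4.75 and 4.94 in wild type, 4.53, 4.57 and 4.54 in knock-out) and gave no check of the labels. The arrays also differed in other ways. Xist had means of 4.64 and 12.44, Eif2s3y on the Y chromosome 10.19 and 4.67, and the progenitor factor Sox2 11.26 and 5.35, in wild type and knock-out. Of 10 fibroblast markers 9 were higher in knock-out cells and none lower, and the sum of their log2 values ran from 71.78 to 72.43 on wild-type and from 98.54 to 99.55 on knock-out arrays. Of 10 markers of neural progenitors 1 was higher and 4 were lower, with sums of 84.95 to 85.76 and 72.88 to 73.15. The sums for 12 neuron markers overlapped (66.60 to 67.37 and 66.90 to 67.32), and 9 of the 12 lay at the background level in both genotypes. Of the 12, Map2 was higher (log2 +0.90, means 10.05 and 10.95). Gap43 was lower (log2 −0.50), with both means at background (5.57 and 5.06). The sums for 7 neuroendocrine markers also overlapped (33.00 to 34.06 and 33.59 to 33.88), all 7 lay at the background level, and only Scg2 among them was called. Of 8 epithelial markers none was higher and 3 were lower, with Krt19 at means of 6.97 and 5.20 and sums of 44.42 to 45.22 and 41.68 to 42.29. Of 7 astrocyte markers 1 was higher and 2 were lower, of 6 oligodendrocyte markers 1 was lower, and of 6 leukocyte markers none was called and 5 lay at the background level in both genotypes. The part of these differences in the members' results was not tested.

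Of the 69 release genes 26 changed between the genotypes, 5 upward and 21 downward in knock-out cells (limma, Benjamini-Hochberg adjusted p under 0.05 over all genes). That is 37.7% of the members beside 31.6% of all genes tested. By role the share called ran from 20% (complexins and Nsf) to 60% (syntaxin-binding proteins), each a role of 5 members, and was 29.4% for the 17 synaptotagmins. Rises made up 7.25% of the members and 14.0% of all genes, and falls 30.4% and 17.6%. At least 2-fold changes were seen for 8 members (11.6%, against 5.32% of all genes), of which 7 fell and only Syt5 rose. For 38 members (55.1%) the values of the genotypes did not overlap, beside 42.3% of all genes. The gaps in the shares called and not overlapping were smaller among genes above the background level in at least 1 genotype. There 53.3% of 45 members and 49.7% of 11653 genes were called, and 64.4% and 60.6% did not overlap. The gaps in rises, falls and 2-fold changes were not smaller there. Of the 45 members 5 rose and 19 fell, beside 2561 and 3235 of the 11653 genes. The median log2 difference was −0.06 over the members and −0.01 over all genes, so the middle of the set lay near that of the array. These shares describe the members and were not tested as a set. The RNA came from whole cultures, in which fewer cells of a type and less RNA per cell cannot be told apart.

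**Figure D1:**
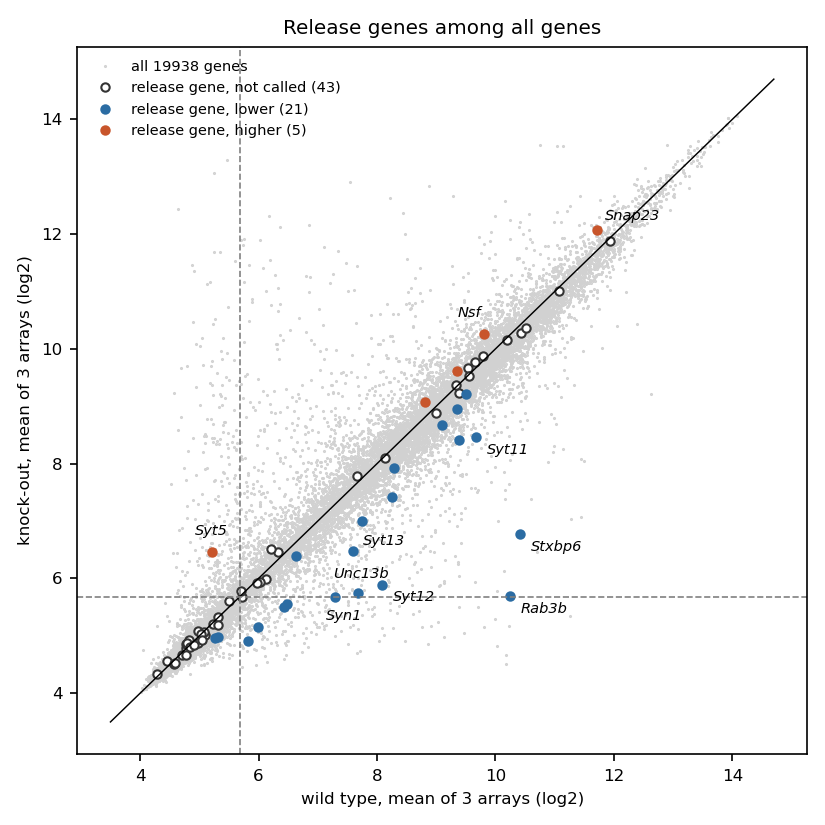
Mean deposited log2 value of each gene in wild-type (x) and knock-out cells (y), 3 arrays each, with all 19938 genes in grey and the 69 release genes as circles coloured by call; the diagonal marks equal means and dashed lines the background level of 5.68. Most release genes lie on the diagonal, while Rab3b and Stxbp6 stand far below it and Syt5 is the 1 member well above it.

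Many of the genes best known from neuronal synapses gave no signal above background. Of all 19938 genes 8285 had means at or under 5.68 in both genotypes, so a mean at background was not particular to release genes. Of the 69 members 24 had such means in both genotypes, with single values between 4.25 and 5.62. They comprised 11 synaptotagmins, Snap25, Syp, Cplx1, Cplx3, Cplx4, Sv2b, Sv2c, Syn3, Bsn, Pclo, Rab3c, Rims2 and Stx19. Snap25, the neuronal partner of syntaxin 1, had values of 5.02, 4.85 and 4.88 in wild type and 4.75, 4.86 and 4.89 in knock-out, and those of the vesicle protein Syp were 5.15, 5.06 and 4.90 against 4.95, 4.94 and 4.90. For both genes the genotypes overlapped. At this level an uncalled gene is not shown to be equal. A further 6 members (Rims1, Stx3, Syn1, Syn2, Syt1 and Unc13a) were above the level in wild type alone, Syt5 in knock-out alone, and 38 in both. Where a mean sits at the background, the printed fold may understate a true one, which was not tested.

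The upstream sequences of the 3 members with the largest falls among those in the promoter table, and of Syn1, the only member with an RE1 core, show what the starts of these genes look like. They are the 250 bases before the annotated start, from RefSeq on GRCm38.p6, read 5′ to 3′ along the gene. Capitals mark 4 motifs searched on both strands: the GC box GGGCGG, the TATA box TATAAA, the cyclic AMP response element TGACGTCA and TTCAGCACC, a core part of the RE1 element that the neuronal repressor REST binds.
Rab3b, chr4:108878820-108879069, plus strand: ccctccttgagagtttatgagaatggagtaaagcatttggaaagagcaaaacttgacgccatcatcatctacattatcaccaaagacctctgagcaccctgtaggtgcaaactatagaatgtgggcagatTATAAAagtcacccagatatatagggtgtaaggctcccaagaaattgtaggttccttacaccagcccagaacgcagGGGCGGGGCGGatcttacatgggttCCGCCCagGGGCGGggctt
Stxbp6, chr12:45074484-45074733, minus strand: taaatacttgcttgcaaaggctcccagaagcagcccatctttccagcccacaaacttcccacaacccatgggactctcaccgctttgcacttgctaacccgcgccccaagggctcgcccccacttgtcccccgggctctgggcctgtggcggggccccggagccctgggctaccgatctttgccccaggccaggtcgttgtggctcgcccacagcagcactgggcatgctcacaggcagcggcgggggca
Unc13b, chr4:43058703-43058952, plus strand: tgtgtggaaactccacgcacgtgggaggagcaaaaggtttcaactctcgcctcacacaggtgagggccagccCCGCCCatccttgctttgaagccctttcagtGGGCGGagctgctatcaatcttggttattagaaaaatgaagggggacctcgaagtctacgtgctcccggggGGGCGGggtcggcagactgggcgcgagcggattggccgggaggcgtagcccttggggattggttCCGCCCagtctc
Syn1, chrX:20920919-20921168, minus strand: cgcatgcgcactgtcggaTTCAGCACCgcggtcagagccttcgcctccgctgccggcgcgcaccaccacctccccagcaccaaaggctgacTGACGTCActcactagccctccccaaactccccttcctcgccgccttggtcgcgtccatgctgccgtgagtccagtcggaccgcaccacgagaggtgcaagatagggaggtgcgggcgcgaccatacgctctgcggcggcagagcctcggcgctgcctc

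The 4 windows differ in make-up. The Rab3b window is 48.8% G and C with 4 GC boxes within 44 bases of the start, the first 2 of them sharing bases, and a TATA box that begins 120 bases before it. Unc13b carries 4 GC boxes spread over the window at 60.8% G and C, and the Stxbp6 window (65.2%) holds none of the 4 motifs. Syn1 (68.0% G and C) holds the RE1 core 232 bases and the response element 159 bases before its start. Promoters were found for 56 of the 69 members, matched by gene ID. Among these the RE1 core stood in 1 (Syn1, 1.79%, against 0.348% of all 27025 genes with a promoter entry). The response element stood in 2 (Syn1 and Stxbp3, 3.57% against 1.77%), the TATA box in 4 (7.14% against 14.3%) and the GC box in 39 (69.6% against 35.4%). Of the 15614 genes also on the arrays, 0.384% held the RE1 core, 2.33% the response element, 12.5% the TATA box and 49.3% the GC box. GC boxes stood upstream of 13 of 17 members that fell, 1 of 4 that rose and 25 of 35 that were not called, and the median G and C content was 61.2%, 56.6% and 62.4%.

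The member with the largest difference, Rab3b, belonged to the Rab3 GTPases and scaffolds of the release site. Of the 12 members of this role 5 fell and none rose, with a median log2 difference of −0.07. Rab3b (probe set 10506883, chromosome 4), a small GTPase of secretory vesicles, had values of 10.28, 10.19 and 10.29 in wild type and 5.69, 5.55 and 5.84 in knock-out. Every knock-out array was near the background level, and the log2 fold change was −4.56 (SE 0.08, a 23.5-fold difference, limma adjusted p = 5.8e-11). Rab3d, known from the granules of secretory glands, fell slightly, from 8.23, 8.28 and 8.36 to 7.81, 8.10 and 7.85 (log2 −0.37, SE 0.08, limma adjusted p = 0.0066), with no overlap. Rab3a, the main neuronal form, was at 6.51, 6.16 and 6.32 against 6.58, 6.33 and 6.48 and was not called (adjusted p = 0.37; 95% interval of the difference −0.08 to +0.35). Rab3c was at background.

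Unc13b, which encodes the priming factor Munc13-2, had values of 7.59, 7.84 and 7.62 in wild-type and 5.64, 5.83 and 5.77 in knock-out cells. All knock-out arrays lay close to the background level and the gene fell by 1.94 on the log2 scale (SE 0.08, 3.83-fold, limma adjusted p = 3.9e-08). Its relative Unc13a, or Munc13-1, lay at the edge of background in both (means 5.72 and 5.68) and was not called in any of its 3 probe sets. The Rim scaffolds join Rab3 on the vesicle to Munc13. Rims1 fell by 0.91 (SE 0.09, limma adjusted p = 2.1e-05), from 5.66, 5.85 and 5.95 to 4.99, 4.79 and 4.95, and thus reached background. Rims2 fell by 0.31 within the background range (limma adjusted p = 0.014), a call lost without wild-type replicate 1 (log2 −0.24, adjusted p = 0.051) or knock-out replicate 1 (log2 −0.26, adjusted p = 0.057). Rims3, Rims4 and the giant scaffolds Bsn and Pclo overlapped between genotypes and were not called. The log2 differences of the 7 uncalled genes of this role ran from −0.09 to +0.13.

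Syntaxin-binding proteins gave 3 falls and no rise among 5 members. Stxbp6, or amisyn, which carries a VAMP-like SNARE motif and binds syntaxins, was at 10.35, 10.43 and 10.48 in wild type and at 6.66, 7.02 and 6.65 in knock-out. No array of one genotype came near those of the other, with a log2 fold change of −3.64 (SE 0.10, 12.5-fold, limma adjusted p = 1.3e-09), and the knock-out values remained above background. Stxbp2, or Munc18-2, fell from 7.77, 7.65 and 7.83 to 6.95, 6.94 and 7.12 (log2 −0.74, SE 0.08, limma adjusted p = 3.3e-05). Stxbp3, or Munc18-3, the partner of syntaxin 4, fell by 0.30 (SE 0.07, limma adjusted p = 0.0097). The other two were not called. Stxbp5, or tomosyn, which blocks syntaxins with a VAMP-like domain, overlapped at 9.64, 9.48 and 9.49 against 9.81, 9.57 and 9.62 (adjusted p = 0.28; interval −0.05 to +0.31). Stxbp4, or Synip, also overlapped (10.37, 10.58 and 10.34 against 10.19, 10.43 and 10.20, adjusted p = 0.24), but its second probe set, lower as well, gave a log2 difference of −0.29 that passed (limma adjusted p = 0.0073), against −0.16 for the first.

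**Figure D2:**
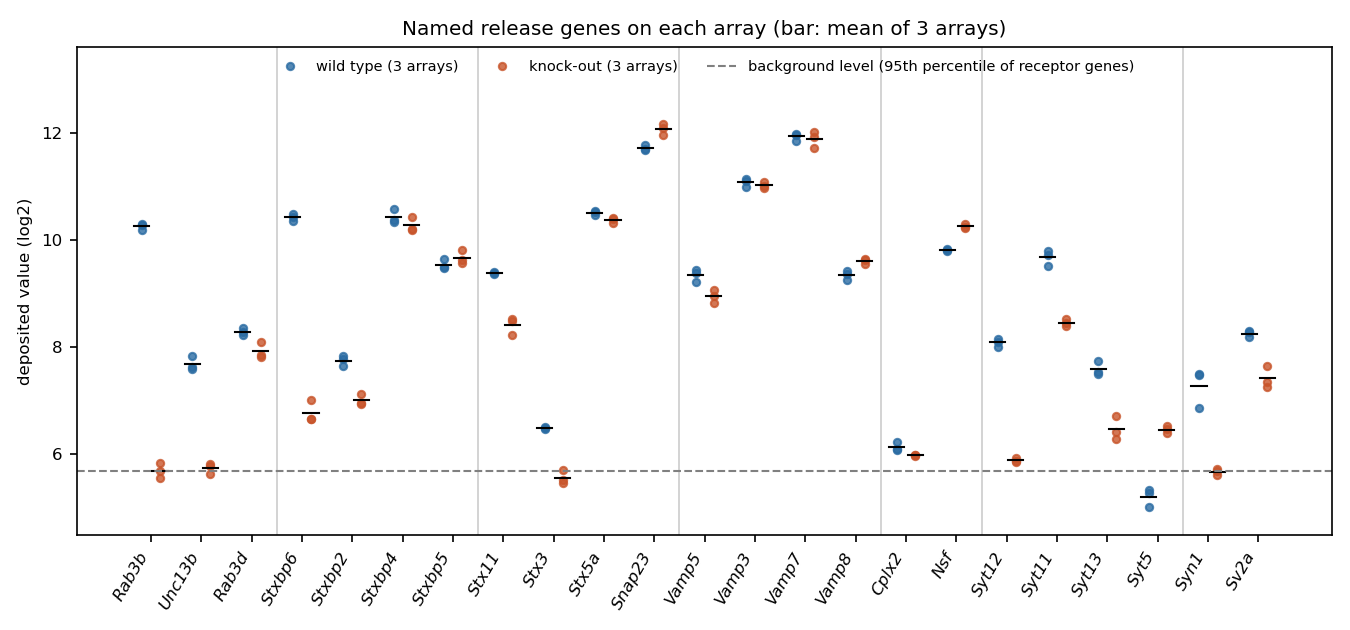
Deposited log2 values of 23 named release genes on each of the 3 wild-type (blue) and 3 knock-out arrays (orange), grouped by role between vertical lines, with black bars at the means and a dashed line at the background level of 5.68. The knock-out points of Rab3b, Unc13b, Stx3, Syt12 and Syn1 lie at or near the line, while those of Vamp3 and Vamp7 overlap the wild-type points.

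Of 17 syntaxins and SNAP proteins, the target-membrane SNAREs, 2 rose, 3 fell and 12 were not called. The syntaxins Stx11 and Stx3 are known partners of Munc18-2. Stx11 was at 9.37, 9.39 and 9.40 in wild type and 8.49, 8.23 and 8.52 in knock-out (log2 −0.97, SE 0.08, limma adjusted p = 7.0e-06). Stx3 went from 6.51, 6.47 and 6.48 to the edge of background at 5.46, 5.70 and 5.51 (log2 −0.93, SE 0.07, limma adjusted p = 4.9e-06). In both, all wild-type arrays lay above the knock-out arrays. The endosomal Stx6 fell by 0.43 (SE 0.06, limma adjusted p = 0.00020), from 9.10, 9.11 and 9.08 to 8.66, 8.68 and 8.67.

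Small rises were seen for Snap23, the broadly used relative of SNAP-25, and for Stx18, a syntaxin of the endoplasmic reticulum. Snap23 was at 11.77, 11.67 and 11.69 in wild type and at 12.09, 11.96 and 12.16 in knock-out, without overlap (log2 +0.36, SE 0.07, 1.28-fold, limma adjusted p = 0.0027). Stx18 rose by 0.25 (SE 0.06, limma adjusted p = 0.011). The Golgi syntaxin Stx5a was at 10.53, 10.47 and 10.53 against 10.41, 10.31 and 10.39 and was not called (log2 −0.14, adjusted p = 0.11), though its arrays did not overlap and it passed with each array centred on its median (log2 −0.18, adjusted p = 0.045). Stx1a, the syntaxin of neuronal release, was at 6.36, 6.37 and 5.89 against 6.37, 6.55 and 6.61 (log2 +0.30, adjusted p = 0.098) and was not called, though its arrays, read unrounded, did not overlap. Wild-type replicate 3 was the lowest, and without it the log2 difference was +0.14 (limma adjusted p = 0.26). The surface syntaxins Stx2 and Stx4a, the endosomal Stx7, Stx8 and Stx12, Stx16 of the trans-Golgi network, Stx17, known from autophagosomes, and the SNAP protein Snap29 were above background and not called. The widest 95% interval among the 12 uncalled genes of this role was that of Stx1a, whose upper end was +0.58.

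Among VAMP proteins, the vesicle-side SNAREs, 1 of 6 members rose and 2 fell, by at most 1.32-fold. Vamp8, or endobrevin, which serves endosomes and regulated secretion outside neurons, rose from 9.37, 9.26 and 9.42 to 9.56, 9.65 and 9.63 (log2 +0.27, SE 0.07, limma adjusted p = 0.010). Vamp5, known from muscle cells and encoded close to Vamp8 on chromosome 6, fell from 9.43, 9.22 and 9.38 to 8.81, 8.96 and 9.07 (log2 −0.40, SE 0.08, 1.32-fold, limma adjusted p = 0.0043). Thus nearby genes of the family differed in opposite directions, without overlap of the arrays in either. Vamp1, or synaptobrevin 1, fell by 0.23 with an adjusted p of 0.046 (limma), which rose to between 0.083 and 0.16 without wild-type replicate 1, wild-type replicate 3 or any 1 knock-out array. The widely used Vamp3, or cellubrevin (10.99, 11.14 and 11.11 against 10.96, 11.07 and 11.01), Vamp7 (11.96, 11.98 and 11.85 against 12.02, 11.92 and 11.71) and Vamp4 overlapped between genotypes. Their log2 differences lay between −0.06 and +0.05, with 95% intervals that reached from −0.23 to +0.20.

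Nsf, which separates spent SNARE complexes, rose from 9.80, 9.83 and 9.81 to 10.22, 10.31 and 10.25. The genotypes did not overlap, and the log2 fold change was +0.44 (SE 0.06, 1.36-fold, limma adjusted p = 0.00021). The complexins, which clamp the assembled complex, were not called. Cplx2 was the only complexin above the background level, at 6.22, 6.09 and 6.08 against 5.99, 5.98 and 5.98, which did not overlap but did not pass (log2 −0.15, adjusted p = 0.11).

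Synaptotagmins, vesicle proteins with paired C2 domains, gave 1 rise and 4 falls among 17 members. Syt12, which is not known to bind calcium, was at 8.10, 8.01 and 8.15 in wild type and 5.94, 5.88 and 5.85 in knock-out, which is just above background (log2 −2.20, SE 0.06, 4.58-fold, limma adjusted p = 2.1e-09). Syt11, an inhibitor of endocytosis in neurons, fell from 9.52, 9.71 and 9.79 to 8.46, 8.39 and 8.52 (log2 −1.22, SE 0.08, limma adjusted p = 1.1e-06). Syt13, which like Syt12 lacks the calcium-binding residues, fell from 7.75, 7.49 and 7.54 to 6.28, 6.71 and 6.42 (log2 −1.12, SE 0.11, limma adjusted p = 2.6e-05). Each of the 3 stayed above the background level on all knock-out arrays, and none overlapped.

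Calcium-binding synaptotagmins went both ways. Syt1, the sensor of fast release at synapses, fell from 6.30, 6.59 and 6.37 to 5.67, 5.60 and 5.24, that is into the background range (log2 −0.92, SE 0.11, limma adjusted p = 0.00014). Syt5 rose, from a background level of 5.01, 5.34 and 5.28 to 6.52, 6.46 and 6.40 (log2 +1.25, SE 0.09, 2.39-fold, limma adjusted p = 1.7e-06). It was the single member whose knock-out arrays alone were above background. The 12 uncalled synaptotagmins had values of 4.64 to 5.79 on all arrays, log2 differences of −0.13 to +0.11 and 95% intervals within −0.28 and +0.29. Syt17 alone among them had means above the background level, and only slightly.

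**Figure D3:**
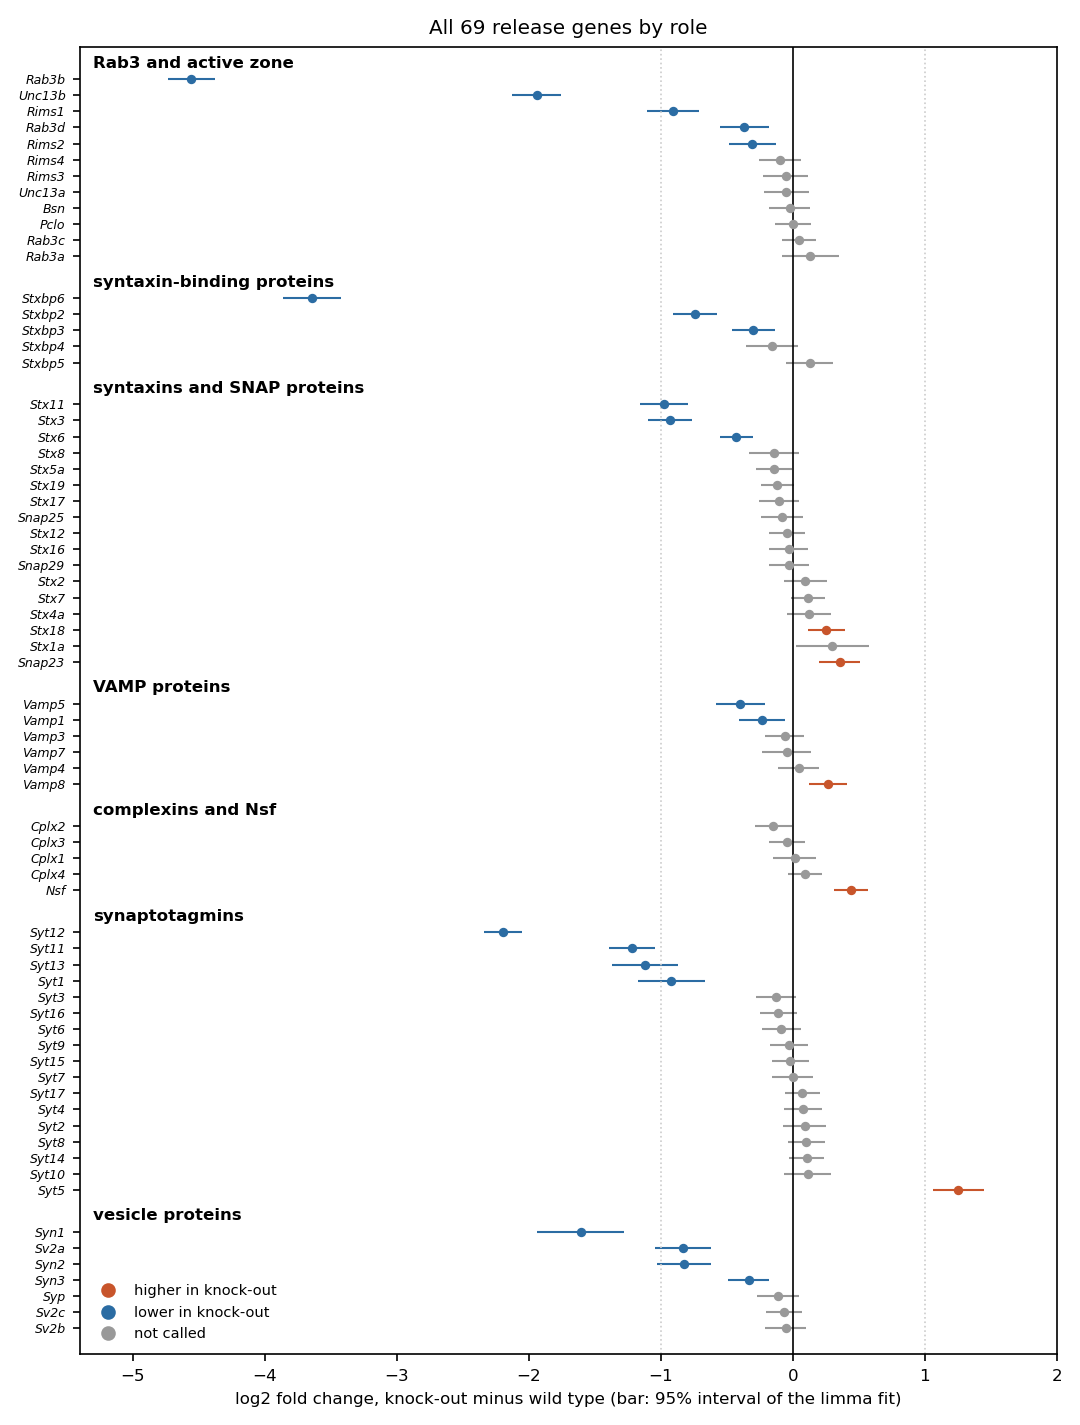
Log2 fold change (knock-out minus wild type, x) of all 69 release genes by role, with bars for the 95% interval of the limma fit over 3 arrays per genotype and colours for genes called at an adjusted p under 0.05. Called genes lie mainly left of 0, with Rab3b at −4.56 and Stxbp6 at −3.64, and the largest rise is that of Syt5 at +1.25.

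The proteins of the vesicle itself gave 4 falls and no rise among 7 members. Synapsins tie vesicles to each other and to actin. Syn1 was at 7.49, 7.50 and 6.86 in wild type and at 5.73, 5.69 and 5.60 in knock-out, so that wild-type replicate 3 lay below the others but above every knock-out array (log2 −1.61, SE 0.15, 3.04-fold, limma adjusted p = 1.5e-05). Its knock-out mean was at background. Syn1 lies on the X chromosome, as do 2 further members, Syp and Vamp7, which were not called, and the arrays with low Syn1 were those with high Xist; the part of this in the fall was not tested. Syn2 fell by 0.82 (SE 0.09, limma adjusted p = 6.1e-05), from 5.89, 5.95 and 6.12 to 5.20, 5.29 and 4.99, and Syn3 by 0.33 within the background range (limma adjusted p = 0.0039). Thus all 3 synapsins fell. Sv2a, a vesicle glycoprotein to which the antiepileptic levetiracetam binds, fell from 8.18, 8.27 and 8.30 to 7.35, 7.26 and 7.65 (log2 −0.83, SE 0.10, limma adjusted p = 8.4e-05) and stayed above background, while Sv2b and Sv2c were at background in both genotypes.

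Other genes of vesicle traffic, from 5 lists, were called in 39 of 113 measured cases (34.5%, beside 31.6% of all genes). Of the 113 genes 12 rose (10.6%, against 14.0% of all) and 27 fell (23.9%, against 17.6%), with a median log2 difference of −0.05. By list the share called ran from 20% (vesicle transporters and related proteins) to 42.9% (priming, docking and tethering factors). Of 21 other SNAREs and fusion factors 3 rose and 4 fell, all by less than 2-fold, led by Napb (log2 −0.57), the neuronal form of the Nsf adaptor SNAP, and Vps33b (log2 +0.52), a Munc18-like protein of endosomes. Priming, docking and tethering factors gave 6 rises and 9 falls of 35. The largest were falls of Sytl5, a Rab27-binding synaptotagmin-like protein, from a mean of 8.96 to 6.46 (log2 −2.50, SE 0.06, limma adjusted p = 9.1e-10), and of Exoc6, a subunit of the exocyst that tethers vesicles at the surface, from 9.49 to 7.23 (log2 −2.27, SE 0.10). Exoc6 lies on chromosome 19, as does Lgi1, and the part of this in its fall was not tested. On that chromosome also lie 4 members, of which Syt12 and Stx3 fell and Stx5a and Syt7 were not called. Vesicle transporters and related proteins gave no rise and 4 falls of 20, each under 2-fold, with Sypl (log2 −0.59), a relative of Syp, and the carrier protein Scamp2 (log2 −0.36) foremost.

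Among 25 genes of vesicle endocytosis 2 rose and 7 fell. Amph, or amphiphysin, which brings dynamin to the necks of budding vesicles, fell from 8.12 to the background level at 5.01 (log2 −3.11, SE 0.11, limma adjusted p = 1.1e-08), and Ston2, an adaptor for synaptotagmin retrieval, fell by 1.20 (SE 0.08). Dense-core granule genes gave 1 rise and 3 falls of 12, with Ptprn, a granule membrane protein, lower by 1.35 (SE 0.08) and Scg2, secretogranin II, higher by 0.44 within the background range (4.75 and 5.19).

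**Figure D4:**
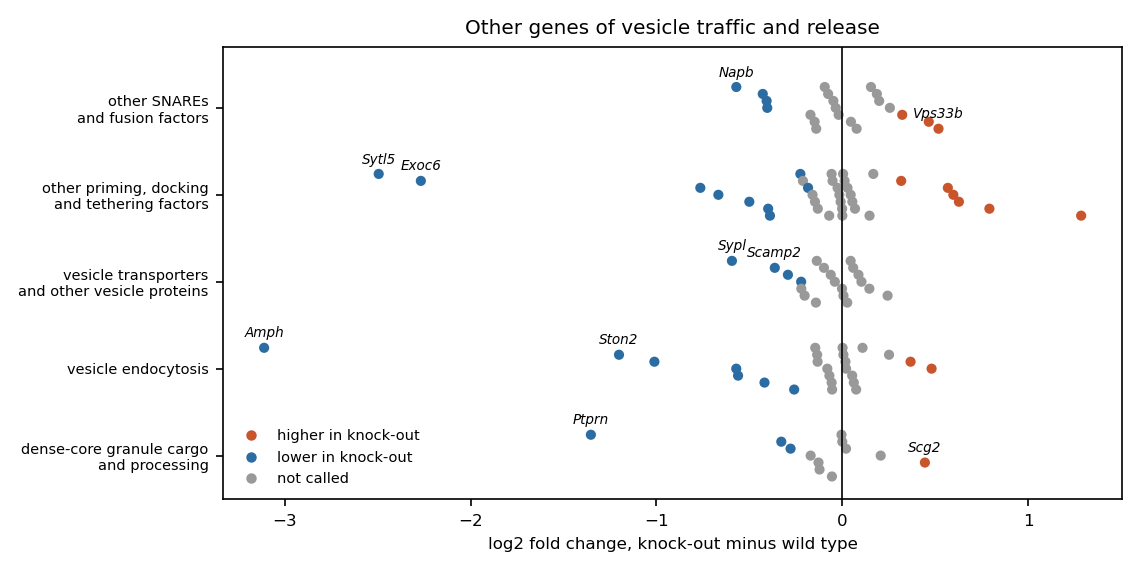
Log2 fold change (knock-out minus wild type, x) of 113 other genes of vesicle traffic in 5 lists (rows), 1 point per gene coloured by call, with the 2 largest called changes of each list named; vertical offsets only separate the points. Most points lie close to 0, and Amph, Sytl5 and Exoc6 lie furthest left.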

How the data were processed

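Each sample was 1 array. The authors deposited 1 log2 value per probe set and array, a scale judged here from the range of the values. The submitters' processing notes name Partek without a version. Background correction, scaling between arrays and summarization of probes were not given in the sources used here, so their effect on small differences is unknown. The deposited log2 values were used unchanged. Of 35556 probe sets 21789 had 1 gene symbol in GEO's platform annotation, 1621 had several and 12146 none, and 2 members had more than 1 row. Tests used lmFit and eBayes of limma 3.58.1 (R 4.3.3) with genotype as the only term and no intensity trend, and p-values were adjusted over all 19938 genes. On simulated data with these 19938 genes and 6 arrays the test recovered 72% of 50 genes changed by 0.5 on the log2 scale, 98% at 1, 100% at 2 and 100% at 4, and called 4 unchanged genes. The simulated arrays varied independently and few genes were changed, whereas 31.6% of genes were called here. These rates therefore need not hold for the deposited data. The number of arrays, 3 per genotype, limits the precision.

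The genes described singly were members called with at least a 2-fold change, in each role the 2 with the largest change and the 2 with the highest mean, the 2 largest called changes of each list of other genes, and Lgi1. The rule also named the 2 brightest markers of each cell type, of which only Map2 and Krt19 are described and the others enter the counts and sums of their lists; further members, other genes and markers were described after their values were seen. Members, lists and tests were chosen with earlier results of these data known. Alternatives covered scaling, filters, moderation, array weights, probe sets, thresholds, each array left out and the replicate number as a block. The titles number the samples of both genotypes alike. Each array's departure from its genotype mean had a correlation over genes of 0.19 to 0.29 with the array sharing its number, and of −0.18 to −0.0047 with the others, so the numbers count as pairs (each over 0.1), although genes are not independent replicates. Promoter sequences came from RefSeq (GRCm38.p6) and were used by gene ID, as the array annotation names no build.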

Additional observations from a re-analysis of the deposited data

How the results depend on the processing

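Of the 26 members called, 24 kept their call and direction in each of the 14 other fits that included them. Rims2 (adjusted p 0.0077 to 0.057 over them) and Vamp1 (0.0088 to 0.16, and 0.074 with an intensity trend) did not. With the replicate number as a block 26 members were called (5 higher and 21 lower) and no member's call changed, while all genes called went from 6296 to 7000. Of the 43 uncalled members, Stx5a passed with arrays centred on their medians (adjusted p 0.045 to 0.30 over the fits) and Stxbp4 with the mean of its probe sets (log2 −0.22, adjusted p 0.020 to 0.60). Among genes above the median level 32 members were tested and 18 called, and 15 cell type markers were called in place of 24; fewer genes enter there. At an adjusted p under 0.01, 22 members were called, 3 of them higher. With a 2-fold minimum 8 members were called (1 higher, 7 lower) and 1061 of all genes (608 higher, 453 lower). Without 1 array at a time 24 to 26 members were called. Centring moved the median difference of all genes from −0.01 to −0.05. The count of members at background was 10 with the receptor genes' median as the level, in place of 24. With their 99th percentile, 6.49, the count was larger, and the knock-out mean of Syt5 (6.46) also lay under the level. Signal near background limits the dim members.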

Other observations

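Genes that act on Rab3 or are named as interacting with it differed in both directions, and its relatives Rab27a and Rab27b rose. These genes were picked from the lists after their values were seen. Rab27a, a GTPase of granules and melanosomes, had a wild-type mean of 5.89 and a knock-out mean of 7.18 (log2 +1.29, SE 0.07), and Rab27b rose by 0.79 (SE 0.07), beside the fall of Rab3b. Rab3gap1, a subunit of the complex that inactivates Rab3, rose by 0.32, while its partner Rab3gap2 was not called (log2 −0.05, limma adjusted p = 0.63). The Rab3-interacting exchange factors Rab3il1 and Rab3ip differed by +0.63 and −0.50. Apart from Rab3gap2, each had a limma adjusted p under 0.05. Of 9 exocyst genes 1 rose (Exoc5, by 0.60), 4 fell (Exoc6b at log2 −0.39, Exoc4 at −0.23 and Exoc2 at −0.18, beside Exoc6) and 4 were not called (Exoc1, Exoc3, Exoc7 and Exoc8). Of the 3 clathrin chains, the light chain Cltb fell by 1.01, from 11.00 to 9.99 (SE 0.07), and Clta (log2 −0.05) and Cltc (log2 −0.06) were not called. Of 5 subunits of the clathrin adaptor AP-2, Ap2s1 rose by 0.37 and 4 were not called. Of the 3 dynamins, which cut vesicles from the membrane, the neuronal Dnm1 fell by 0.56, from 9.29 to 8.73, Dnm2 fell by 0.26 and Dnm3 was not called (log2 −0.13).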
